A study of Danio rerio with 24 samples.

Results

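The comparison described here asks which genes were expressed differently in the retinal pigment epithelium (RPE) of larval zebrafish 4 days after RPE ablation when the larvae had been treated with rapamycin. It sets 3 MTZ+ libraries against 3 MTZ- libraries, all rapamycin-treated and all collected at 4 days post-injury (4dpi), out of the 24 libraries of the series, and these 6 were taken by their treatment and time labels alone. Larvae came from crosses of *rpe65a*:nfsB-eGFP carriers to the AB strain. The transgene drives a fusion of a bacterial nitroreductase and eGFP from the *rpe65a* promoter, so that metronidazole (MTZ) kills the cells that express it. MTZ+ larvae received 10 mM MTZ for 24 hours from 5 days post-fertilisation (dpf) and MTZ- larvae received none. Both groups were kept in 2 µM rapamycin from 4 dpf, that is from 24 hours before ablation, had been given PTU (a blocker of pigment formation) from 6 hours post-fertilisation until 5 dpf, and were 9 dpf old at collection. Each library was made from eGFP+ cells, at most 1000 of them, sorted from about 80 eyes of 40 larvae. The gate took cells by their eGFP signal, and whether the *rpe65a* promoter was active in every sorted cell was not tested. Surviving cells and cells formed after ablation cannot be told apart in this gate. Effects of MTZ exposure itself, or of the position of the remaining cells in the RPE, cannot be told apart from those of ablation either. The DMSO vehicle groups of the same age, MTZ+ and MTZ-, with 3 libraries each, entered the same model and are used below only where the difference between treatments was tested.

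The RPE is a single layer of pigmented epithelial cells behind the photoreceptors, which it supports by recycling visual pigment, carrying nutrients and engulfing shed outer segments. Zebrafish can rebuild this layer after ablation from RPE cells at the edge of the wound, which enter the cell cycle and lose part of their pigmentation. Rapamycin inhibits mTOR complex 1, a kinase complex that promotes translation, ribosome production and cell growth in response to amino acids and growth factors.

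The 6 libraries held 32907475 to 34912595 counted fragments in the MTZ- group and 33669100, 23743339 and 37189527 in MTZ+ replicates 1, 2 and 3. Values are read counts scaled to the library total and to edgeR's TMM factor (CPM) unless stated otherwise, always given in the order of replicates 1, 2 and 3. RPE identity was present in every library. The summed level of 9 RPE markers was 58911, 76363 and 64249 CPM in the MTZ- libraries and 82928, 18515 and 45195 CPM in the MTZ+ libraries, with none of the 9 at 0 in any library. MTZ+ replicate 1 was above all MTZ- libraries in that sum, whereas MTZ+ replicate 2 was the lowest of the 6. MTZ- replicate 1 held far more photoreceptor transcript than the others, since 39 rod and cone markers summed to 12745, 1856 and 949 CPM in the MTZ- libraries and to 598, 567 and 419.9 CPM in the MTZ+ libraries. MTZ+ replicate 2 held the most leukocyte transcript, with 36 markers summing to 76.8, 12.1 and 13.6 CPM in the MTZ- libraries, where 12 to 27 of them were at 0, and to 21.2, 254 and 37.8 CPM in the MTZ+ libraries, where 24, 3 and 8 were at 0. Markers of the lens, of endothelium and blood, and of fibroblasts and cornea summed to at most 278 CPM in any of the 6. The 16 markers of neural crest pigment cells were higher, at 3930, 2584 and 3356 CPM in the MTZ- libraries and 7833, 1832 and 3300 CPM in the MTZ+ libraries. The median of these 16 markers was 0.284 to 1.21 CPM in the 6 libraries, and their cell source was not tested. The raw names in the labels carry the letter C for MTZ+ DMSO and D for MTZ+ rapamycin in replicates 1 and 3 and the reverse in replicate 2, and groups follow the titles. In the summed Müller glia markers, MTZ+ rapamycin replicate 2 lay with the other MTZ+ rapamycin libraries and MTZ+ DMSO replicate 2 with the other MTZ+ DMSO libraries. Results that rest on MTZ- replicate 1 or MTZ+ replicate 2 are given with and without them.

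**Figure D1:**
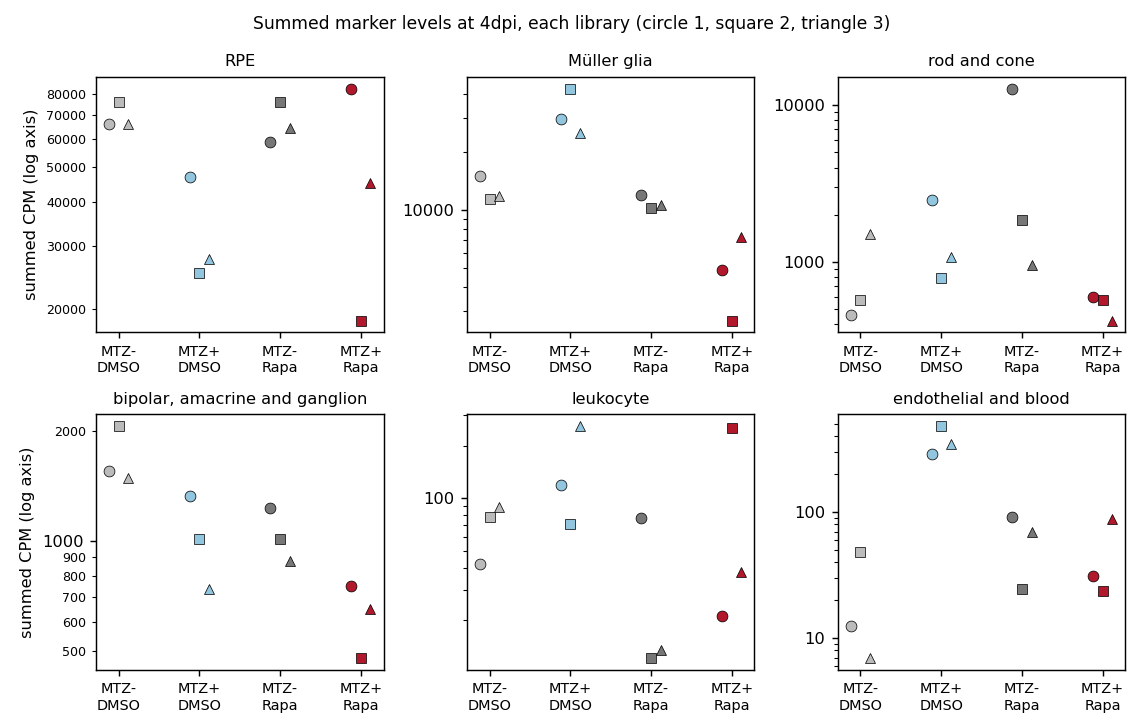
Summed CPM of 6 marker lists (log axis) in each of the 12 libraries at 4dpi, by group, with circles, squares and triangles for replicates 1, 2 and 3. MTZ- rapamycin replicate 1 is the highest of the 12 in the rod and cone panel at 12745 CPM, and the MTZ+ DMSO libraries are the highest in the Müller glia panel.

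Ablation was followed by broad expression changes in the rapamycin-treated RPE. Of 17515 genes tested, 2727 (15.6%) were differentially expressed genes (DEGs), which had to pass 3 thresholds, a log2 fold change beyond 1 in either direction, a Benjamini-Hochberg adjusted p below 0.05 in edgeR's quasi-likelihood test, and at least 1 TPM as the mean of the higher group. Of these, 1512 (8.63% of tested genes) were upregulated and 1215 (6.94%) were downregulated in MTZ+ larvae. Counts of list members given below are to be read beside these shares. In all 3 pairs of same-numbered libraries, 2699 of the DEGs changed in the same direction, which selection as a DEG itself favours. The median log2 fold change over all tested genes was 0.03. The values of the MTZ+ and MTZ- libraries did not overlap for 7355 of the tested genes (42.0%). DESeq2 turned the balance, with 1793 upregulated and 1868 downregulated genes. The count of DEGs depended on single libraries, at 1669 without MTZ+ replicate 2, 1744 without MTZ+ replicate 3, 1712 without MTZ- replicate 2 and 3464 without MTZ+ replicate 1, and the downregulated genes among them were 606 without MTZ+ replicate 3, 655 without MTZ+ replicate 2 and 657 without MTZ- replicate 2. It fell to 30 in a fit of these 6 libraries alone with the replicate number as a block, which leaves 2 residual degrees of freedom and was chosen after seeing the data.

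**Figure D2:**
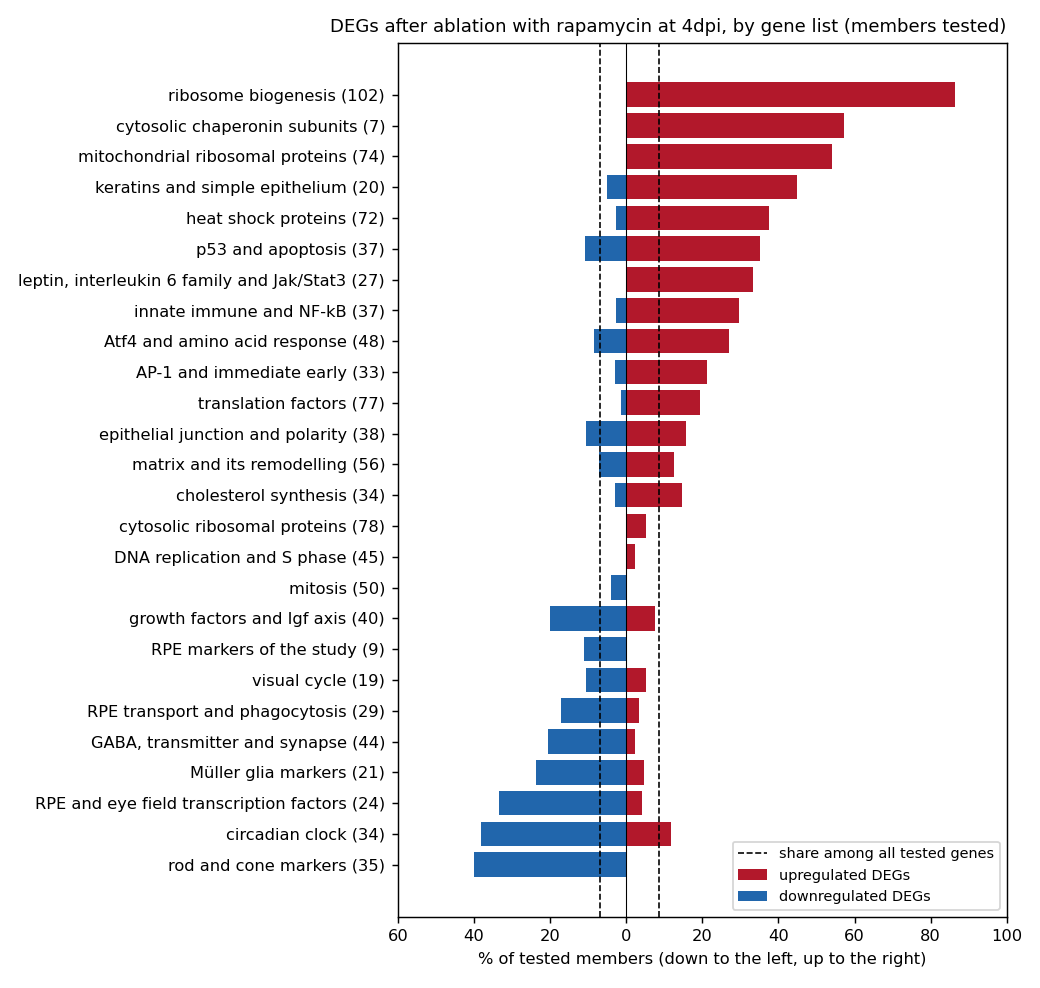
Share of tested members of 26 gene lists that were upregulated (red, to the right) or downregulated (blue, to the left) after ablation with rapamycin at 4dpi, with the number tested in brackets and dashed lines at the shares among all tested genes, 8.63% and 6.94%. Ribosome biogenesis extends furthest to the right and rod and cone markers furthest to the left.

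Among the upregulated genes with the smallest p, several separated the groups by levels that were nearly constant within each group. *abracl*, which encodes a small protein related to the C-terminus of the actin-binding protein Abra (ENSDARG00000042876, chromosome 20 from 36806398 to 36818195 in GRCz11), had 13.6, 14.7 and 13.8 CPM in the MTZ- libraries and 102, 103 and 98.3 CPM in the MTZ+ libraries (log2 fold change 2.85, SE 0.16, edgeR adjusted p = 1.11e-05). Its gene overlaps *slc25a27*, and whether the counting used strand is not given in the sources used here. *rab32a*, encoding a GTPase of melanosome biogenesis, had 36.0, 26.9 and 42.4 CPM in the MTZ- libraries and 192, 175 and 175 CPM in the MTZ+ libraries (log2 fold change 2.36, SE 0.18, edgeR adjusted p = 0.000180). In both genes the lowest MTZ+ library was more than 4 times the highest MTZ- library. *slc5a3b*, a relative of the mammalian myo-inositol transporter gene, had 8.95, 8.32 and 11.3 CPM in the MTZ- libraries and 83.3, 71.7 and 68.5 CPM in the MTZ+ libraries (log2 fold change 2.97, SE 0.26, edgeR adjusted p = 0.000283). *palld*, encoding the actin-bundling protein palladin, had 33.2, 33.3 and 40.5 CPM in the MTZ- libraries and 130.05, 201 and 197 CPM in the MTZ+ libraries (log2 fold change 2.304, SE 0.21, edgeR adjusted p = 0.000338), and *arhgap42a*, encoding a GTPase-activating protein, rose by 2.01 on the log2 scale. *cox17*, encoding a copper chaperone of cytochrome c oxidase, rose by 1.74, *bves*, encoding a Popeye domain membrane protein, by 3.70 and *cst14b.1*, encoding a cystatin, by 3.75. The libraries of each of these genes did not overlap between groups, which held for 42.0% of all tested genes. Choosing genes by the smallest p favours this.

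The downregulated genes with the smallest p were led by *slc43a2b* (ENSDARG00000061120, chromosome 10 from 24371921 to 24391716), which encodes a transporter of large neutral amino acids. It had 493, 1323 and 1261 CPM in the MTZ- libraries and 14.8, 8.61 and 8.98 CPM in the MTZ+ libraries (log2 fold change -6.57, SE 0.48, edgeR adjusted p = 0.000160), so that every MTZ+ library was far below the lowest MTZ- library. *spon1a*, encoding the matrix protein spondin 1, had 32.4, 24.8 and 21.2 CPM in the MTZ- libraries and 1.39, 0.455 and 0.247 CPM in the MTZ+ libraries (log2 fold change -5.24, SE 0.57, edgeR adjusted p = 0.000620). *psme1*, encoding a subunit of the PA28 proteasome activator, had 32.9, 40.1 and 46.4 CPM in the MTZ- libraries and 4.56, 4.23 and 3.53 CPM in the MTZ+ libraries (log2 fold change -3.28, SE 0.28, edgeR adjusted p = 0.000278). These 3 genes were low in all 3 MTZ+ libraries alike. *atp1a3a*, encoding a catalytic subunit of the sodium-potassium pump, had 67.9, 50.2 and 21.0 CPM in the MTZ- libraries and 1.68, 1.01 and 0.938 CPM in the MTZ+ libraries (log2 fold change -5.26, SE 0.55, edgeR adjusted p = 0.000599). *htra1b*, encoding a secreted serine protease, fell by 3.77 on the log2 scale, *cyth1b*, encoding an exchange factor of Arf GTPases, fell by 3.01, *selenbp1*, encoding a selenium-binding protein, fell by 2.59, and *slc25a18*, encoding a mitochondrial glutamate carrier, fell by 2.83. *ip6k2a*, encoding an inositol hexakisphosphate kinase, fell by 2.29 and *nfkbie*, encoding an inhibitor of NF-kB, fell by 2.80. A gene listed as *ptprt_2*, a receptor-type tyrosine phosphatase whose model overlaps a second one of that name, had 16.2, 23.7 and 19.3 CPM in the MTZ- libraries and 1.12, 0.560 and 1.38 CPM in the MTZ+ libraries.

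The largest upregulated changes were in genes without a single count in the MTZ- libraries, for which only a lower bound can be given, set against 3 counts per library. Here and below, each bound uses the mean of the 3 MTZ+ libraries, so a single library can give a smaller fold. *ptgs2a*, encoding a cyclooxygenase of prostaglandin synthesis, was at 48.6, 178 and 115 CPM in the MTZ+ libraries and was at least 1176-fold higher. *dkk1a*, encoding a secreted Wnt inhibitor, was at 5.31, 131 and 21.8 CPM and at least 546-fold higher, and *mbpa*, the gene of a myelin basic protein whose model overlaps another gene, was at 6.57, 107 and 31.3 CPM and at least 501-fold higher. *rgs5b*, encoding a regulator of G-protein signalling, was at 5.31, 34.8 and 16.3 CPM and at least 194-fold higher. MTZ+ replicate 2 was the highest and replicate 1 the lowest in all 4. Of the upregulated DEGs, 51 had no count in any MTZ- library, and of the downregulated DEGs, 16 had no count in any MTZ+ library.

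**Figure D3:**
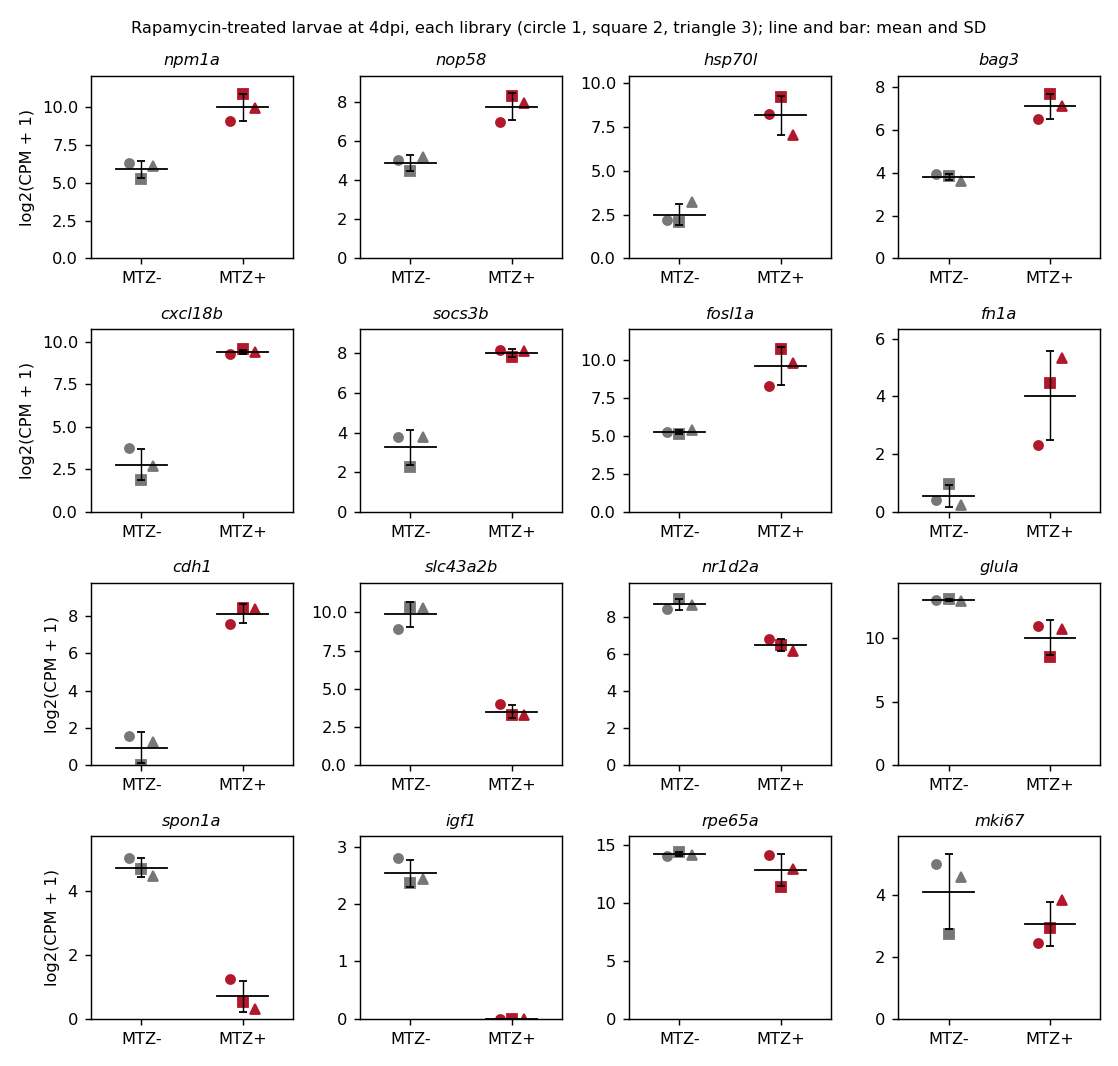
Levels of 16 genes as log2(CPM + 1) in each rapamycin-treated library at 4dpi, MTZ- in grey and MTZ+ in red, with the mean and SD of 3 libraries. The groups are apart for 14 of the genes and overlap for *rpe65a* and *mki67*.

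Genes of ribosome production rose in a larger share of members than any other list examined. Ribosome biogenesis takes place mainly in the nucleolus, where ribosomal RNA is transcribed, trimmed and assembled with ribosomal proteins. Of 102 tested members of this list, 88 were upregulated and none was downregulated, with 100 above 0 and a median log2 fold change of 2.38, beside 8.63% upregulated among all tested genes. The list summed to 3248, 3259 and 3422 CPM in the MTZ- libraries and 7061, 16043 and 10953 CPM in the MTZ+ libraries. Leaving out each of the 6 libraries in turn gave 78 to 91 upregulated members.

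*npm1a*, encoding the abundant nucleolar chaperone nucleophosmin (ENSDARG00000014329, chromosome 10 from 22034477 to 22045119), had 78.0, 36.6 and 69.7 CPM in the MTZ- libraries and 548, 1921 and 1001 CPM in the MTZ+ libraries (log2 fold change 4.23, SE 0.51, edgeR adjusted p = 0.000858). *mrto4*, whose yeast counterpart assembles the ribosomal stalk, had 10.8, 6.18 and 11.03 CPM in the MTZ- libraries and 96.5, 258 and 187 CPM in the MTZ+ libraries (log2 fold change 4.27, SE 0.42, edgeR adjusted p = 0.000502). Its model overlaps *akr7a3*. MTZ+ replicate 2 was the highest and replicate 1 the lowest for both, and all MTZ+ libraries were above all MTZ- libraries. *nop58*, encoding a core protein of the box C/D particles that methylate ribosomal RNA, had 31.1, 20.6 and 34.8 CPM in the MTZ- libraries and 125, 315 and 244 CPM in the MTZ+ libraries (log2 fold change 2.98, SE 0.35, edgeR adjusted p = 0.000842), with a model that overlaps another gene. *rcl1*, named for its yeast counterpart in 18S ribosomal RNA processing, had 14.3, 9.36 and 12.7 CPM in the MTZ- libraries and 49.8, 122 and 94.1 CPM in the MTZ+ libraries (log2 fold change 2.87, SE 0.38, edgeR adjusted p = 0.00109). *mak16* and *grwd1*, known from yeast and human for large subunit assembly, rose by 2.41 and 2.53 on the log2 scale, and the helicase gene *ddx24* rose by 2.88. The members that did not pass include *gtpbp4*, encoding a GTPase of large subunit assembly, with 680.1, 839 and 712 CPM in the MTZ- libraries and 724, 828 and 671 CPM in the MTZ+ libraries (log2 fold change -0.01, edgeR adjusted p = 0.987), whose groups overlap.

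**Figure D4:**
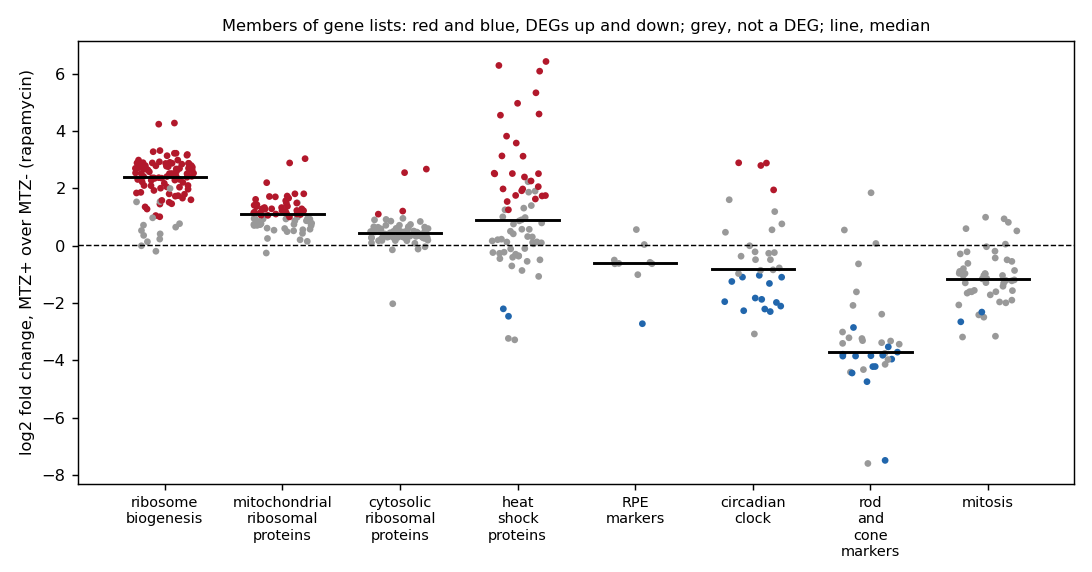
Log2 fold change of MTZ+ over MTZ- in rapamycin-treated larvae for each tested member of 8 gene lists, with DEGs in red (up) and blue (down), other members in grey, list medians as black bars and the median of all tested genes as a dashed line. Ribosome biogenesis has a median of 2.38, mitochondrial ribosomal proteins of 1.09 and cytosolic ribosomal proteins of 0.43.

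The ribosomal proteins themselves divided by compartment. Of 74 mitochondrial ribosomal protein genes, 40 were upregulated and none downregulated, with a median log2 fold change of 1.09. The count was 26 without MTZ+ replicate 2. *mrpl12*, encoding a protein of the large mitochondrial subunit, had 25.7, 17.5 and 22.6 CPM in the MTZ- libraries and 97.3, 220.3 and 167 CPM in the MTZ+ libraries (log2 fold change 2.88, SE 0.31, edgeR adjusted p = 0.000620), and *mrps33*, of the small subunit, rose by 1.66. Of 78 cytosolic ribosomal protein genes, 4 were upregulated, 2 without MTZ+ replicate 2, with a median of 0.43, which was 0.28 without MTZ- replicate 1. The highest of them were the paralogs *rps27l*, with 73.9, 100.4 and 83.0 CPM in the MTZ- libraries and 247, 812 and 441 CPM in the MTZ+ libraries (log2 fold change 2.54, SE 0.37, edgeR adjusted p = 0.00158), and *rpl7l1*, with 47.9, 33.0 and 51.9 CPM in the MTZ- libraries and 189, 367 and 287 CPM in the MTZ+ libraries (log2 fold change 2.67, SE 0.29, edgeR adjusted p = 0.000620). *rpl11*, a core protein of the large subunit, had 176, 164 and 199 CPM in the MTZ- libraries and 339, 325 and 338 CPM in the MTZ+ libraries and did not reach the fold change threshold (log2 fold change 0.90, edgeR adjusted p = 0.0124). The summed level of the 78 genes was 40659, 49285 and 43149 CPM in the MTZ- libraries and 57888, 63252 and 54989.9 CPM in the MTZ+ libraries, and these groups do not overlap.

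Translation factors and amino acid response genes changed in part. Of 77 translation factor genes, 15 were upregulated and 1 downregulated, with a median log2 fold change of 0.27, which was 0.18 without MTZ+ replicate 2. *eif6*, encoding a factor that keeps ribosomal subunits apart and is needed for large subunit assembly, had 75.5, 65.4 and 86.5 CPM in the MTZ- libraries and 208, 398 and 286 CPM in the MTZ+ libraries (log2 fold change 1.97, SE 0.26, edgeR adjusted p = 0.00110). *eif2s1a*, encoding the alpha subunit of eIF2, the target of the stress kinases that raise Atf4, had 31.5, 32.6 and 32.2 CPM in the MTZ- libraries and 89.2, 149 and 119 CPM in the MTZ+ libraries (log2 fold change 1.89, SE 0.21, edgeR adjusted p = 0.000620). *eif4ebp1*, encoding a translation repressor that mTOR complex 1 phosphorylates, had 122, 98.3 and 105 CPM in the MTZ- libraries and 247, 481 and 384 CPM in the MTZ+ libraries (log2 fold change 1.77, SE 0.24, edgeR adjusted p = 0.00125). All MTZ+ libraries were above all MTZ- libraries for these 3 genes. Of 48 genes of the Atf4 and amino acid response list, 13 were upregulated and 4 downregulated. Without single libraries, 9 to 13 were upregulated, and the downregulated count was 0 without MTZ- replicate 2, 1 without MTZ- replicate 3, 1 without MTZ+ replicate 3, 2 without MTZ+ replicate 2 and 7 without MTZ+ replicate 1. The transfer RNA synthetase genes *wars1*, *gars1* and *nars1* rose by 2.93, 1.68 and 1.58 on the log2 scale.

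Heat shock genes were also among the strongest changes. Heat shock proteins fold or refold other proteins, and the inducible Hsp70 genes are transcribed when unfolded protein accumulates. Of 72 tested members of the heat shock families, 27 were upregulated and 2 downregulated, with a median log2 fold change of 0.88, and leaving out each library gave 22 to 29 upregulated members. *hsp70l*, an inducible Hsp70 gene (ENSDARG00000055723, chromosome 8 from 4798158 to 4800911), had 3.62, 3.24 and 8.25 CPM in the MTZ- libraries and 301, 596 and 128 CPM in the MTZ+ libraries (log2 fold change 6.08, SE 0.68, edgeR adjusted p = 0.000620). Its near-identical relatives *hsp70.1* and *hsp70.2*, whose models overlap *atp2a1*, had 2.26, 1.74 and 7.18 CPM against 132, 638 and 189 CPM and 5.27, 2.94 and 21.6 CPM against 469.8, 1428 and 419 CPM. How reads that match several of these copies were counted is not given in the sources used here, so the split between them is uncertain. The lowest MTZ+ library of each was above the highest MTZ- library. *dnajb1b*, encoding an Hsp40 partner of Hsp70, had 12.4, 6.35 and 16.9 CPM in the MTZ- libraries and 128, 543 and 187 CPM in the MTZ+ libraries (log2 fold change 4.59, SE 0.60, edgeR adjusted p = 0.00106). *bag3*, encoding a partner of Hsp70 in the clearance of damaged protein, had 14.2, 13.3 and 11.3 CPM in the MTZ- libraries and 89.8, 204 and 135 CPM in the MTZ+ libraries (log2 fold change 3.46, SE 0.32, edgeR adjusted p = 0.000338). *hspb1*, encoding a small heat shock protein, had 1.67, 3.41 and 4.08 CPM in the MTZ- libraries and 91.96, 63.1 and 59.2 CPM in the MTZ+ libraries (log2 fold change 4.55, SE 0.48, edgeR adjusted p = 0.000599). *hspa5*, encoding the Hsp70 of the endoplasmic reticulum, had 63.6, 35.7 and 71.3 CPM in the MTZ- libraries and 233, 386 and 348 CPM in the MTZ+ libraries (log2 fold change 2.50, SE 0.43, edgeR adjusted p = 0.00313), and its partner gene *dnajb11* rose by 1.97. *hspa12a*, encoding a distant Hsp70 relative, fell instead, from 8.08, 6.35 and 5.50 CPM to 0.891, 0.944 and 1.75 CPM.

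Of the 7 tested subunits of the cytosolic chaperonin, the ring complex that folds actin and tubulin, 4 were upregulated. *tcp1* and *cct4* rose by 1.66 and 1.77 on the log2 scale, the latter with a model that overlaps *pus10*. Of 41 proteasome subunit genes, none was upregulated and 1 was downregulated, namely *psma2*, which fell by 1.097 and whose model overlaps 2 other genes.

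Ligands, receptors and inhibitors of interleukin 6 family and Jak/Stat signalling were among the upregulated genes. In this pathway cytokines such as interleukin 11 bind receptors that share the subunit gp130, Jak kinases activate Stat3, and Stat3 induces the feedback inhibitor Socs3. Of 27 tested members, 9 were upregulated, with 6 to 11 when each library was left out. Among the ligands, *il11b* was at 0 in all MTZ- libraries and at 6.01, 102 and 30.8 CPM in the MTZ+ libraries, at least 478-fold higher. *il11a* was likewise at 0 in the MTZ- libraries and at 2.28, 23.9 and 4.89 CPM in the MTZ+ libraries, at least 107-fold higher in the mean. Both ligands were highest in MTZ+ replicate 2. Among the receptors, *lifrb*, a relative of the leukaemia inhibitory factor receptor gene, had 0.465, 1.24 and 2.01 CPM in the MTZ- libraries and 33.6, 52.9 and 55.7 CPM in the MTZ+ libraries (log2 fold change 5.26, SE 0.59, edgeR adjusted p = 0.000620). *il6st*, encoding gp130, had 24.9, 35.101 and 31.7 CPM in the MTZ- libraries and 73.0, 114 and 99.2 CPM in the MTZ+ libraries (log2 fold change 1.64, SE 0.21, edgeR adjusted p = 0.000952). The receptor genes varied less between MTZ+ libraries than the ligand genes. Among the inhibitors, *socs3b* had 12.9, 3.74 and 12.5 CPM in the MTZ- libraries and 288, 221 and 271 CPM in the MTZ+ libraries (log2 fold change 4.74, SE 0.43, edgeR adjusted p = 0.000338), with a model that overlaps *pgs1*, and *socs3a* had 21.8, 17.2 and 32.3 CPM in the MTZ- libraries and 199, 175 and 152 CPM in the MTZ+ libraries (log2 fold change 2.88, SE 0.44, edgeR adjusted p = 0.00190).

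AP-1 is a transcription factor of Fos and Jun proteins that responds within minutes to growth factors and stress. Of 33 tested AP-1 and immediate early genes, 7 were upregulated and 1 downregulated, which became 4 and 0 when MTZ+ replicate 2 or 3, or MTZ- replicate 2 or 3, was left out. Without MTZ- replicate 1 none was downregulated. *fosl1a*, encoding the Fos family protein Fra-1, had 37.1, 34.3 and 40.8 CPM in the MTZ- libraries and 317, 1738 and 880.4 CPM in the MTZ+ libraries (log2 fold change 4.71, SE 0.89, edgeR adjusted p = 0.00492). Its paralog *fosl1b* had 0, 0.167 and 0.194 CPM in the MTZ- libraries and 16.9, 162 and 72.3 CPM in the MTZ+ libraries (log2 fold change 9.41, SE 1.38, edgeR adjusted p = 0.00158). For both, MTZ+ replicate 2 was the highest and replicate 1 the lowest, still above every MTZ- library. *fosl2* and the small Maf gene *maff* rose by 2.45 and 1.17.

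Few cytokine genes passed the test beside a larger number of innate immune genes. Of 27 tested cytokines and chemokines, 3 were upregulated, 5 without MTZ+ replicate 1. *cxcl18b*, encoding a chemokine that attracts neutrophils in zebrafish (ENSDARG00000075045, chromosome 1 from 49222164 to 49225890), had 12.5, 2.71 and 5.53 CPM in the MTZ- libraries and 632, 751 and 673 CPM in the MTZ+ libraries (log2 fold change 6.63, SE 0.58, edgeR adjusted p = 0.000283). *il34*, encoding a ligand of the macrophage receptor Csf1r, had 0, 0.869 and 0.679 CPM in the MTZ- libraries and 8.88, 61.5 and 31.6 CPM in the MTZ+ libraries (log2 fold change 6.04, SE 1.34, edgeR adjusted p = 0.0101). *cxcl18b* was almost equal in the 3 MTZ+ libraries, whereas *il34* differed between them several-fold. Of 37 innate immune and NF-kB genes, 11 were upregulated and 1 downregulated, with 8 to 12 upregulated when each library was left out. *c7a*, encoding a complement component of the membrane attack complex, was at 0 in the MTZ- libraries and at 7.92, 10.5 and 8.32 CPM in the MTZ+ libraries, at least 92.1-fold higher. *serpinb1*, whose human counterpart inhibits neutrophil proteases, had 3.19, 1.87 and 1.33 CPM in the MTZ- libraries and 20.4, 18.5 and 22.2 CPM in the MTZ+ libraries (log2 fold change 3.26, SE 0.49, edgeR adjusted p = 0.00172). *irf9*, encoding a factor of interferon signalling, rose by 2.50, *nfkbiaa*, encoding an inhibitor of NF-kB, by 2.65, and *tnfrsf1a*, a tumour necrosis factor receptor gene, by 1.37. In contrast to *nfkbiaa*, *nfkbie*, encoding another inhibitor of NF-kB, fell by 2.80. The summed leukocyte markers were at 12.1 to 76.8 CPM in the MTZ- libraries and 21.2 to 254 CPM in the MTZ+ libraries, ranges that overlap. Of 30 tested leukocyte markers 1 was upregulated, and none when any library other than MTZ+ replicate 1 was left out. Their median log2 fold change was 2.299, and -0.03 without MTZ+ replicate 2. All the cytokine and innate immune genes named in this paragraph were DEGs also when each library was left out. The cell source of their transcripts was not tested.

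Several genes of simple epithelium were near 0 in the MTZ- libraries and present in all MTZ+ libraries. Of 20 tested keratin and simple epithelium genes, 9 were upregulated and 1 downregulated, and 7 to 8 were upregulated when each library was left out. The median log2 fold change of the list was 4.07, and 1.11 without MTZ+ replicate 1, where 2 were downregulated. *cdh1*, encoding the adherens junction protein E-cadherin (ENSDARG00000102750, chromosome 7 from 53059299 to 53117237), had 1.98, 0 and 1.39 CPM in the MTZ- libraries and 189, 349 and 335 CPM in the MTZ+ libraries (log2 fold change 8.002, SE 1.07, edgeR adjusted p = 0.00109). *epcam*, encoding an epithelial adhesion protein, had 0, 0.368 and 0 CPM in the MTZ- libraries and 69.2, 183 and 68.4 CPM in the MTZ+ libraries (log2 fold change 9.76, SE 1.71, edgeR adjusted p = 0.00346). *krt18a.1*, a keratin gene of simple epithelia, had 3.07, 0.535 and 0.323 CPM in the MTZ- libraries and 60.7, 293 and 326 CPM in the MTZ+ libraries (log2 fold change 7.42, SE 1.16, edgeR adjusted p = 0.00202). For *cdh1* and *epcam* the MTZ- libraries were between 0 and 2 CPM, and for all 3 genes the lowest MTZ+ library was more than 10 times the highest MTZ- library. The size of the *epcam* change rests on few MTZ- counts and was 9.09 to 14.65 under the alternatives planned. Keratin 18 pairs with keratin 8 in filaments, and *krt8* rose by 3.85. The keratin gene *krt97*, named after its values were seen, fell instead, with 257, 526 and 293 CPM in the MTZ- libraries and 50.5, 11.09 and 15.2 CPM in the MTZ+ libraries (log2 fold change -3.81, SE 0.76, edgeR adjusted p = 0.00620). *icn*, encoding the calcium-binding protein ictacalcin, had 1.24, 0.0669 and 0.420 CPM in the MTZ- libraries and 22.9, 21.3 and 24.97 CPM in the MTZ+ libraries (log2 fold change 5.30, SE 0.71, edgeR adjusted p = 0.00110). Among 38 junction and polarity genes, 6 were upregulated and 4 downregulated, with 4 to 8 and 0 to 4 when each library was left out, the latter being 0 without MTZ+ replicate 3 and 2 without MTZ+ replicate 2, MTZ- replicate 2 or MTZ- replicate 3. *cldn7b*, encoding a claudin of tight junctions, had 0.0310, 0 and 0 CPM in the MTZ- libraries and 6.93, 13.0 and 7.11 CPM in the MTZ+ libraries (log2 fold change 9.25, SE 1.39, edgeR adjusted p = 0.00173), and *ctnnd1*, encoding the p120 catenin that holds cadherins at the membrane, rose by 1.39.

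Matrix genes moved in both directions. Of 56 tested matrix and remodelling genes, 7 were upregulated and 4 downregulated, beside 8.63% and 6.94% of all tested genes. These counts became 4 and 2 without MTZ+ replicate 3, and the same without MTZ- replicate 2. Without MTZ+ replicate 1, 7 were downregulated. *fn1a*, encoding fibronectin, had 0.341, 0.969 and 0.194 CPM in the MTZ- libraries and 3.96, 20.9 and 39.2 CPM in the MTZ+ libraries (log2 fold change 5.41, SE 0.89, edgeR adjusted p = 0.00399). *serpinh1b*, encoding the collagen chaperone Hsp47, had 1.084, 3.34 and 2.65 CPM in the MTZ- libraries and 33.5, 55.2 and 8.17 CPM in the MTZ+ libraries (log2 fold change 3.77, SE 0.68, edgeR adjusted p = 0.00393), with a model that overlaps *gdpd5b*. The MTZ+ libraries differed among themselves by several-fold in both of these genes, and each was higher in all of them than in any MTZ- library. *adam8a*, encoding a membrane metalloprotease, had 0, 0 and 0.356 CPM in the MTZ- libraries and 8.88, 25.1 and 17.6 CPM in the MTZ+ libraries (log2 fold change 7.13, SE 1.601, edgeR adjusted p = 0.0105). The size of this change rests on few MTZ- counts and was 6.48 to 12.01 under the alternatives planned. *lamb2l*, encoding a laminin beta chain of the basement membrane, had 45.9, 64.4 and 50.5 CPM in the MTZ- libraries and 10.3, 1.82 and 11.499 CPM in the MTZ+ libraries (log2 fold change -2.77, SE 0.51, edgeR adjusted p = 0.00458).

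Of 42 tested Wnt pathway genes, 5 were upregulated and 5 downregulated, with 4 to 6 and 2 to 6 when each library was left out, the downregulated count being 2 without MTZ+ replicate 2 or MTZ- replicate 2 and 3 without MTZ+ replicate 3 or MTZ- replicate 3. Among all tested genes, 8.63% were upregulated and 6.94% downregulated. The upregulated Wnt pathway genes included secreted modulators. Beside *dkk1a* above, *dkk1b*, a second gene of the same Wnt inhibitor, was at 0 in the MTZ- libraries and at 0.528, 16.9 and 7.85 CPM in the MTZ+ libraries, at least 87.1-fold higher in the mean. *rspo3*, encoding an enhancer of Wnt signalling, was at 0 in the MTZ- libraries and at 1.19, 1.89 and 1.16 CPM in the MTZ+ libraries. *tcf7l1a*, encoding a Tcf repressor, had 66.9, 98.8 and 102 CPM in the MTZ- libraries and 26.7, 23.0 and 20.5 CPM in the MTZ+ libraries (log2 fold change -1.93, SE 0.25, edgeR adjusted p = 0.00104). Of 22 CCN and Yap/Taz genes, 5 were upregulated and 3 downregulated, with 2 upregulated without MTZ+ replicate 2 or MTZ- replicate 3 and 3 without MTZ+ replicate 3 or MTZ- replicate 1. *ankrd1a*, a target gene of Yap in other systems, was at 0 in the MTZ- libraries and at 0.693, 12.03 and 5.53 CPM in the MTZ+ libraries, at least 62.9-fold higher in the mean. *ccn5*, encoding a secreted CCN protein, had 6.44, 10.4 and 8.31 CPM in the MTZ- libraries and 2.18, 0.770 and 0.913 CPM in the MTZ+ libraries (log2 fold change -2.70, SE 0.47, edgeR adjusted p = 0.00345). Of 46 Tgf-beta and Bmp genes, 1 was upregulated and 5 were downregulated, with 2 to 8 downregulated when each library was left out, the lowest without MTZ+ replicate 2, MTZ+ replicate 3 or MTZ- replicate 2 and the highest without MTZ+ replicate 1.

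Part of the p53 and apoptosis genes rose and fewer fell, while most genes of DNA replication and mitosis did not pass the test. The transcription factor p53 responds to DNA damage and to disturbed ribosome assembly, and its targets slow the cell cycle or promote apoptosis. Of 37 tested p53 and apoptosis genes, 13 were upregulated and 4 downregulated, and 10 to 13 were upregulated when each library was left out, whereas the downregulated count was 1 without MTZ+ replicate 3 and 2 without MTZ+ replicate 2, MTZ- replicate 2 or MTZ- replicate 3. *mdm2*, encoding the ligase that degrades p53, had 37.05, 41.6 and 36.6 CPM in the MTZ- libraries and 107, 473 and 289.7 CPM in the MTZ+ libraries (log2 fold change 2.92, SE 0.47, edgeR adjusted p = 0.00240). *phlda3*, encoding an inhibitor of Akt, had 75.8, 122 and 107 CPM in the MTZ- libraries and 351, 964 and 569 CPM in the MTZ+ libraries (log2 fold change 2.63, SE 0.36, edgeR adjusted p = 0.00116). *gadd45aa*, a growth arrest and DNA damage gene, had 2.08, 1.17 and 3.23 CPM in the MTZ- libraries and 40.7, 174 and 96.4 CPM in the MTZ+ libraries (log2 fold change 5.58, SE 0.70, edgeR adjusted p = 0.000932). In all 3, MTZ+ replicate 2 was the highest and replicate 1 the lowest of the MTZ+ libraries, and none of the MTZ+ libraries overlapped the MTZ- libraries. *gadd45ab* rose by 5.76, *casp8*, encoding the initiator caspase of death receptors, by 3.69, and *ccng1*, encoding cyclin G1, by 1.72. The lowest log2 fold change of the list was -2.11, that of *sesn1*, a downregulated DEG given with the mTOR genes below.

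Of 45 tested DNA replication and S phase genes, 1 was upregulated and none downregulated, and 3 were upregulated without MTZ+ replicate 1. The gene that rose was *e2f7*, which encodes a repressor of the E2F family and had 1.89, 0.969 and 3.62 CPM in the MTZ- libraries and 30.4, 98.8 and 64.3 CPM in the MTZ+ libraries (log2 fold change 4.90, SE 0.55, edgeR adjusted p = 0.000620). The helicase subunit gene *mcm5* had 30.0, 5.01 and 28.2 CPM in the MTZ- libraries and 10.1, 8.08 and 8.29 CPM in the MTZ+ libraries (log2 fold change -1.25, edgeR adjusted p = 0.333). Of 50 tested mitosis genes, none was upregulated and 2 were downregulated, with a median of -1.15, which was -0.73 without MTZ- replicate 1. The downregulated count was 7 with DESeq2, 0 without MTZ- replicate 3 and 1 without MTZ- replicate 1 or MTZ+ replicate 3. The proliferation marker *mki67* had 31.5, 5.75 and 23.3 CPM in the MTZ- libraries and 4.46, 6.68 and 13.5 CPM in the MTZ+ libraries (log2 fold change -1.29, edgeR adjusted p = 0.205), and *cdk1*, encoding the mitotic kinase, had 47.1, 9.66 and 17.2 CPM in the MTZ- libraries and 11.3, 9.90 and 11.105 CPM in the MTZ+ libraries (log2 fold change -1.19, edgeR adjusted p = 0.375). The groups overlap for these 3 genes, and MTZ- replicate 1 was the highest library in each. *mycb*, encoding a Myc protein that drives growth and cycling, rose from 15.8, 11.3 and 12.2 CPM to 62.5, 77.5 and 54.4 CPM (log2 fold change 2.31, SE 0.26, edgeR adjusted p = 0.000620), and *ccnd2a*, encoding cyclin D2, fell from 17.3, 27.98 and 24.6 CPM to 10.5, 8.50 and 10.6 CPM (log2 fold change -1.24, SE 0.26, edgeR adjusted p = 0.00777).

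Most RPE markers did not separate the groups. Of 9 markers, 1 was downregulated and none upregulated, with a median log2 fold change of -0.62, and without MTZ+ replicate 1, the library nearest to the controls, 4 were downregulated with a median of -1.07. Without MTZ+ replicate 2 the median was -0.29. *rpe65a*, the isomerase gene of the visual cycle whose promoter drives the transgene (ENSDARG00000007480, chromosome 2 from 1428696 to 1443692), had 17682, 22500.5 and 18431 CPM in the MTZ- libraries and 18204, 2745 and 8091 CPM in the MTZ+ libraries (log2 fold change -1.01, edgeR adjusted p = 0.194), and was a downregulated DEG only in the fit without MTZ+ replicate 1. *dct*, encoding a melanin synthesis enzyme, had 14270.0, 17718 and 15538 CPM in the MTZ- libraries and 19205, 3687 and 10645 CPM in the MTZ+ libraries (log2 fold change -0.50). *tyrp1b*, of the same enzyme family, had 16834, 21051 and 17826 CPM in the MTZ- libraries and 31969, 7519 and 17705 CPM in the MTZ+ libraries (log2 fold change 0.04). For all 3 genes MTZ+ replicate 1 was within or above the MTZ- range and MTZ+ replicate 2 below it. The marker that fell was *lrata*, encoding the enzyme that stores vitamin A as an ester, with 602, 1390.4 and 1021 CPM in the MTZ- libraries and 296, 54.8 and 105 CPM in the MTZ+ libraries (log2 fold change -2.72, SE 0.62, edgeR adjusted p = 0.0109), a call lost without MTZ+ replicate 3. Of 19 visual cycle genes, 1 was upregulated and 2 were downregulated, the latter 9 without MTZ+ replicate 1, 0 without MTZ+ replicate 3, 1 without MTZ+ replicate 2, MTZ- replicate 2 or MTZ- replicate 3, and 6 with DESeq2. *rdh10b*, encoding a retinol dehydrogenase, was the one that rose, with 23.7, 22.8 and 26.4 CPM in the MTZ- libraries and 40.4, 100.3 and 71.1 CPM in the MTZ+ libraries (log2 fold change 1.54, SE 0.31, edgeR adjusted p = 0.00674). Of 22 melanin and melanosome genes, *rab32a* alone rose and none fell, although 5 fell without MTZ+ replicate 1.

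Of the transcription factors of the RPE and eye field, those that passed the test fell, with 1 exception. Of 24 tested members, 8 were downregulated and 1 was upregulated, and 3 to 9 were downregulated when each library was left out, with 3 without MTZ- replicate 2, 4 without MTZ+ replicate 2 and 5 without MTZ+ replicate 3. The exception was *otx2a*, one of the paired genes of a homeobox factor required for RPE formation, with 15.6, 18.7 and 17.8 CPM in the MTZ- libraries and 44.9, 54.6 and 50.4 CPM in the MTZ+ libraries (log2 fold change 1.52, SE 0.19, edgeR adjusted p = 0.000952). *bhlhe40*, encoding a repressor that is also part of the circadian list, had 747, 824 and 701 CPM in the MTZ- libraries and 248, 177 and 215 CPM in the MTZ+ libraries (log2 fold change -1.83, SE 0.24, edgeR adjusted p = 0.00109). *nr2f1a*, encoding an orphan nuclear receptor of eye patterning, fell from 51.1, 44.0 and 29.6 CPM to 19.3, 15.4 and 18.3 CPM (log2 fold change -1.23, SE 0.22, edgeR adjusted p = 0.00392). Of 29 transport and phagocytosis genes, 1 was upregulated and 5 downregulated. The downregulated count was 12 without MTZ+ replicate 1, 3 without MTZ- replicate 2, and 2 without MTZ+ replicate 2, MTZ+ replicate 3 or MTZ- replicate 3. *slc6a6a*, encoding a taurine transporter, had 46.4, 77.7 and 68.6 CPM in the MTZ- libraries and 12.4, 0.909 and 5.13 CPM in the MTZ+ libraries (log2 fold change -3.38, SE 0.71, edgeR adjusted p = 0.00781). *mertka*, encoding the receptor by which RPE cells engulf outer segments, had 55.5, 94.0 and 74.7 CPM in the MTZ- libraries and 38.8, 19.7 and 26.997 CPM in the MTZ+ libraries (log2 fold change -1.39, SE 0.29, edgeR adjusted p = 0.00730).

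Summed rod and cone transcripts were lower in the MTZ+ libraries, and lists of other retinal cells changed in part. In sorted pools, fewer cells of a type and less RNA per cell cannot be told apart. Of 35 tested rod and cone markers, 14 were downregulated and none upregulated, with a median log2 fold change of -3.71, which was -1.71 without MTZ- replicate 1. The count was 5 without MTZ- replicate 1, which held most of this transcript, 7 without MTZ+ replicate 2 and 6 without MTZ+ replicate 3. *crx*, encoding a homeobox factor of photoreceptors, had 203, 62.1 and 35.5 CPM in the MTZ- libraries and 10.2, 2.204 and 8.76 CPM in the MTZ+ libraries (log2 fold change -3.82, SE 0.89, edgeR adjusted p = 0.0122). *gngt2b*, encoding a subunit of the cone transducin, had 484, 132 and 62.8 CPM in the MTZ- libraries and 22.3, 21.4 and 8.07 CPM in the MTZ+ libraries (log2 fold change -3.71, SE 0.74, edgeR adjusted p = 0.00601). *pde6b*, encoding a rod phosphodiesterase subunit, had 28.8, 8.96 and 7.54 CPM in the MTZ- libraries and 0.957, 0.595 and 1.55 CPM in the MTZ+ libraries (log2 fold change -3.85, SE 0.74, edgeR adjusted p = 0.00541). These 3 genes remained DEGs without MTZ- replicate 1, since the other MTZ- libraries were also above the MTZ+ libraries.

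Of 44 transmitter and synapse genes, 1 was upregulated and 9 were downregulated, with 5 downregulated without MTZ- replicate 1, 3 without MTZ+ replicate 2 and 5 without MTZ+ replicate 3. *slc6a1a*, encoding a GABA transporter, had 3.19, 8.83 and 2.39 CPM in the MTZ- libraries and 0.0990, 0.245 and 0 CPM in the MTZ+ libraries (log2 fold change -5.40, SE 1.22, edgeR adjusted p = 0.0144), with a model that overlaps *vgll4a*. Of 28 bipolar, amacrine and ganglion cell markers, 1 was upregulated and 3 were downregulated, beside 8.63% and 6.94% of all tested genes. None was downregulated without MTZ- replicate 1 or without MTZ+ replicate 2.

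Of 21 Müller glia markers, 5 were downregulated and 1 was upregulated, and 3 were downregulated without MTZ- replicate 3 or MTZ+ replicate 1. *glula*, encoding glutamine synthetase, which Müller glia and the RPE express, dominated the summed level of the list and had 8052, 8273 and 7689 CPM in the MTZ- libraries and 1922, 350.4 and 1635 CPM in the MTZ+ libraries (log2 fold change -2.62, SE 0.48, edgeR adjusted p = 0.00428). *her4.1*, a Notch target gene, had 25.9, 8.39 and 24.3 CPM in the MTZ- libraries and 1.25, 0.315 and 0.469 CPM in the MTZ+ libraries (log2 fold change -4.84, SE 0.83, edgeR adjusted p = 0.00315). *ndrg2* had 33.1, 32.9 and 16.6 CPM in the MTZ- libraries and 8.68, 2.34 and 3.26 CPM in the MTZ+ libraries (log2 fold change -2.53, SE 0.54, edgeR adjusted p = 0.00850). The MTZ+ libraries were below all MTZ- libraries for these 3 genes. The summed level of the 21 markers was 11925, 10226 and 10568 CPM in the MTZ- libraries and 4854, 2659 and 7231 CPM in the MTZ+ libraries.

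Clock genes were among the lists with the highest share of downregulated members. The circadian clock is a feedback loop in which Clock and Bmal activate Per, Cry and Rev-erb genes. Of 34 tested members, 13 were downregulated and 4 upregulated, beside 6.94% downregulated among all tested genes. Leaving out each library gave 10 to 16 downregulated members, while 1 was upregulated without MTZ- replicate 2, MTZ- replicate 3 or MTZ+ replicate 3. *nr1d2a*, encoding a Rev-erb receptor (ENSDARG00000003820, chromosome 16 from 50089417 to 50111057), had 347, 512 and 409 CPM in the MTZ- libraries and 112, 89.1 and 73.1 CPM in the MTZ+ libraries (log2 fold change -2.21, SE 0.23, edgeR adjusted p = 0.000599). *ciarta*, encoding a repressor of the clock, had 404, 445 and 299.6 CPM in the MTZ- libraries and 175, 163 and 145 CPM in the MTZ+ libraries (log2 fold change -1.25, SE 0.20, edgeR adjusted p = 0.00242), and its paralog *ciartb* fell by 1.98 on the log2 scale. *dbpa*, encoding an output factor of the clock, had 14.1, 15.6 and 8.41 CPM in the MTZ- libraries and 3.37, 1.54 and 2.99 CPM in the MTZ+ libraries (log2 fold change -2.27, SE 0.44, edgeR adjusted p = 0.00554), and *cry3b*, encoding a cryptochrome, rose from 6.19, 5.58 and 4.82 CPM to 14.5, 23.8 and 25.5 CPM (log2 fold change 1.94, SE 0.33, edgeR adjusted p = 0.00314).

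Growth factor and Igf axis genes changed in both directions, and few genes of the mTOR pathway passed the test. Of 40 tested growth factor and Igf axis genes, 8 were downregulated and 3 upregulated, beside 6.94% and 8.63% of all tested genes, with 6 to 12 downregulated when each library was left out. *igf1*, encoding insulin-like growth factor 1, was at 5.98, 4.15 and 4.399 CPM in the MTZ- libraries and at 0 in all MTZ+ libraries, at least 52.2-fold lower. The insulin receptor substrate genes *irs2b* and *irs1*, which link Igf and insulin receptors to their kinases, had 166, 238 and 201 CPM in the MTZ- libraries and 51.1, 59.1 and 54.4 CPM in the MTZ+ libraries (log2 fold change -1.88, SE 0.23, edgeR adjusted p = 0.000902) and 56.2, 52.7 and 76.5 CPM in the MTZ- libraries and 27.4, 25.1 and 12.5 CPM in the MTZ+ libraries (log2 fold change -1.51, SE 0.28, edgeR adjusted p = 0.00482). *igf2b* fell from 80.6, 97.5 and 113 CPM to 47.5, 14.3 and 20.3 CPM (log2 fold change -1.83, SE 0.39, edgeR adjusted p = 0.00823). In contrast, *hbegfa*, encoding a ligand of the Egf receptor, had 5.42, 8.36 and 11.4 CPM in the MTZ- libraries and 60.2, 183 and 106 CPM in the MTZ+ libraries (log2 fold change 3.80, SE 0.57, edgeR adjusted p = 0.00166), and *vegfab*, encoding a vascular growth factor, rose by 1.57. Of 55 genes of the mTOR complexes and their regulators, 2 were upregulated and 4 downregulated, shares below those of all tested genes for the upregulated members. The downregulated count was 7 without MTZ+ replicate 1 and 2 without MTZ+ replicate 2 or 3, and 1 was upregulated without any library other than MTZ+ replicate 1. *akt1s1*, encoding the mTOR complex 1 inhibitor PRAS40, had 223, 349.6 and 212 CPM in the MTZ- libraries and 105, 56.1 and 50.7 CPM in the MTZ+ libraries (log2 fold change -1.89, SE 0.40, edgeR adjusted p = 0.00825). *sesn1*, encoding a sestrin, an inhibitor of the complex in amino acid sensing, fell by 2.11 on the log2 scale, with a model that overlaps other genes.

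Metabolic lists were mixed, and their counts stand beside 8.63% upregulated and 6.94% downregulated among all tested genes. Of 47 glycolysis genes, 5 were upregulated and 5 downregulated, the latter 1 to 6 when each library was left out, with 1 without MTZ+ replicate 2, 2 without MTZ- replicate 2 or 3 and 3 without MTZ+ replicate 3. *hk1*, encoding hexokinase, had 7.90, 15.8 and 8.18 CPM in the MTZ- libraries and 60.3, 112 and 74.4 CPM in the MTZ+ libraries (log2 fold change 2.95, SE 0.40, edgeR adjusted p = 0.00116), and *pfkfb3*, encoding the enzyme that makes an activator of glycolysis, had 44.4, 19.1 and 38.9 CPM in the MTZ- libraries and 222, 357 and 322 CPM in the MTZ+ libraries (log2 fold change 3.14, SE 0.41, edgeR adjusted p = 0.00106). *eno1a*, an enolase gene, rose by 2.23 and *pfkpb*, a phosphofructokinase gene, fell by 1.81. Of 34 cholesterol synthesis genes, 5 were upregulated, 3 without MTZ- replicate 2, and 1 was downregulated. *scd*, encoding a fatty acid desaturase and not an enzyme of cholesterol synthesis itself, had 0.155, 0 and 0 CPM in the MTZ- libraries and 4.13, 12.7 and 18.9 CPM in the MTZ+ libraries (log2 fold change 7.70, SE 1.38, edgeR adjusted p = 0.00386). Its size rests on few MTZ- counts and was 7.16 to 11.45 under the alternatives planned. Of 76 genes of mitochondrial respiration, 3 were upregulated and 3 downregulated, with *cyc1* and *sdha*, subunits of complexes III and II, rising by 1.19 and 1.33 and the cytochrome c oxidase gene *cox5b2* falling from 24.8, 40.3 and 36.2 CPM to 8.68, 3.92 and 7.97 CPM.

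Of 47 oxidative defence and metal genes, 9 were upregulated and 9 downregulated, and the upregulated count was 5 without MTZ+ replicate 2 or MTZ- replicate 1. *txn*, encoding thioredoxin, had 93.3, 87.2 and 116 CPM in the MTZ- libraries and 635, 2359 and 1382 CPM in the MTZ+ libraries (log2 fold change 3.88, SE 0.52, edgeR adjusted p = 0.00109), and *txnrd3*, a thioredoxin reductase gene, rose by 1.72. *gpx4b*, encoding a peroxidase of lipid hydroperoxides, had 374, 365 and 442 CPM in the MTZ- libraries and 1155, 751 and 1072 CPM in the MTZ+ libraries (log2 fold change 1.34, SE 0.21, edgeR adjusted p = 0.00225). *selenop*, encoding a secreted selenium carrier, had 279, 347 and 293 CPM in the MTZ- libraries and 48.0, 13.2 and 44.8 CPM in the MTZ+ libraries (log2 fold change -3.11, SE 0.44, edgeR adjusted p = 0.00139). *fth1b*, a ferritin gene, had 72.8, 101.1 and 70.09 CPM in the MTZ- libraries and 28.4, 13.5 and 16.9 CPM in the MTZ+ libraries (log2 fold change -2.05, SE 0.36, edgeR adjusted p = 0.00362). Thus *txn*, *txnrd3* and *gpx4b* were higher and *selenop* and *fth1b* lower in the MTZ+ libraries, within a list that had 9 members changed in each direction. Of 67 lysosome and autophagy genes, 6 were upregulated and 5 downregulated, shares near the 8.63% and 6.94% of all tested genes. When each library was left out, 1 to 10 were downregulated, the lowest without MTZ+ replicate 2 and the highest without MTZ+ replicate 1. The downregulated count was 2 without MTZ+ replicate 3 or MTZ- replicate 2 and 3 without MTZ- replicate 3. In the fit blocked by replicate number, 4 were upregulated and 8 downregulated. *sqstm1*, encoding the autophagy receptor p62, had 175, 214 and 211 CPM in the MTZ- libraries and 538, 2047 and 1378 CPM in the MTZ+ libraries (log2 fold change 2.72, SE 0.44, edgeR adjusted p = 0.00239), with a model that overlaps *mrnip*. The proton pump genes *atp6v1ba* and *atp6v1ab* rose by 1.38 and 2.29, and *map1lc3a*, encoding an LC3 protein of the autophagosome, fell by 1.51.

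The ablation effect with rapamycin was next set against the ablation effect with DMSO at 4dpi, which was measured in other libraries, by testing the difference between the effects. With DMSO, 2512 genes (14.3%) were upregulated and 1601 (9.14%) downregulated. The lists shared 955 upregulated genes, which were 63.2% of those found with rapamycin and 38.0% of those found with DMSO, and 689 downregulated genes, 56.7% and 43.0%. The effects differed for 581 genes (3.32%) by the same criteria. The rapamycin effect was the higher for 100 of them and the lower for 481, and 405 of the 481 were upregulated after ablation with DMSO. This count was 1567 with DESeq2. It was 227 without MTZ+ DMSO replicate 2 and 249 without MTZ- rapamycin replicate 1, lay between 303 and 355 when any of MTZ+ DMSO replicates 1 and 3, MTZ- DMSO replicates 1 and 2 or MTZ+ rapamycin replicates 2 and 3 was left out, and was 86 without both MTZ+ libraries of replicate 2. Genes named for a treatment difference before the 2dpi comparison passed also without each of the 12 libraries in turn, unless stated otherwise.

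Mitosis genes were among those with a lower effect of ablation with rapamycin. With DMSO, 26 of 50 were upregulated, with a median log2 fold change of 4.46, against a median of -1.15 with rapamycin, and the effects differed for 22 of them. The count was 14 without MTZ+ DMSO replicate 1, 13 without MTZ+ rapamycin replicate 3 or MTZ- rapamycin replicate 1, and 8 without both MTZ+ libraries of replicate 2. *mki67* had 0, 0 and 0.105 CPM in MTZ- DMSO and 7.76, 4.75 and 7.12 CPM in MTZ+ DMSO libraries, beside 31.5, 5.75 and 23.3 CPM in MTZ- rapamycin and 4.46, 6.68 and 13.5 CPM in MTZ+ rapamycin libraries (difference -8.64 on the log2 scale, SE 1.23, edgeR adjusted p = 0.00774). *nusap1*, encoding a protein of the mitotic spindle, had 0, 0 and 0.105 CPM in MTZ- DMSO and 6.98, 5.30 and 11.9 CPM in MTZ+ DMSO libraries, beside 28.99, 9.86 and 13.0 CPM and 5.31, 3.99 and 6.47 CPM with rapamycin (difference -9.36 on the log2 scale, SE 1.09, edgeR adjusted p = 0.00402). With MTZ- DMSO libraries at 0 or 0.105 CPM for both genes, the size of these differences is uncertain. The unablated groups were the ones that lay apart. The 51 mitosis genes of the table summed to 66.3, 76.9 and 71.1 CPM in MTZ- DMSO and to 661, 213 and 447 CPM in MTZ- rapamycin libraries. After ablation they summed to 346, 289 and 301 CPM in MTZ+ DMSO and 262, 250.2 and 308 CPM in MTZ+ rapamycin libraries, ranges that overlap. In the MTZ- DMSO libraries 22 to 26 of the 51 genes were at 0, and in the MTZ- rapamycin libraries at most 1. Of 45 DNA replication genes, 23 were upregulated with DMSO against 1 with rapamycin, and the difference passed for 3, with 1 to 10 when each library was left out, the lowest without MTZ+ rapamycin replicate 3 and the highest without MTZ- rapamycin replicate 2, 0 without both MTZ+ libraries of replicate 2, 15 with DESeq2 and 5 in the fit blocked by replicate number. Among these was *mcm2*, with 0, 0 and 0.594 CPM in MTZ- DMSO and 18.8, 13.7 and 13.7 CPM in MTZ+ DMSO libraries and 25.6, 7.29 and 25.1 CPM in the MTZ- libraries and 18.1, 11.2 and 11.8 CPM in the MTZ+ libraries with rapamycin (difference -6.72 on the log2 scale, SE 1.28, edgeR adjusted p = 0.0202), which did not pass without MTZ+ rapamycin replicate 3.

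Müller glia markers were upregulated in 14 of 21 cases with DMSO, and the effects differed for 11, all lower with rapamycin, with 7 without MTZ+ DMSO replicate 2 and 4 without both MTZ+ libraries of replicate 2. Here the ablated groups were far apart, with sums of 29678, 42532 and 25102 CPM in MTZ+ DMSO against 4854, 2659 and 7231 CPM in MTZ+ rapamycin libraries, while the MTZ- DMSO libraries were at 14969, 11371 and 11859 CPM. *fabp7a*, encoding a fatty acid binding protein of glia, had 63.4, 38.59 and 124 CPM in MTZ- DMSO and 751, 906 and 671 CPM in MTZ+ DMSO libraries, beside 969.8, 256 and 601 CPM in the MTZ- libraries and 142, 74.0 and 332 CPM in the MTZ+ libraries with rapamycin (difference -5.10 on the log2 scale, SE 0.87, edgeR adjusted p = 0.0124). *her4.1* had 12.4, 1.70 and 12.5 CPM in MTZ- DMSO and 25.5, 12.2 and 22.03 CPM in MTZ+ DMSO libraries (difference -6.01 on the log2 scale, SE 1.07, edgeR adjusted p = 0.0154). The sodium-potassium pump gene *atp1a1b* had 8.45, 7.01 and 6.78 CPM in MTZ- DMSO and 160.0, 243 and 233 CPM in MTZ+ DMSO libraries against 37.6, 21.8 and 33.9 CPM and 34.3, 26.97 and 59.6 CPM with rapamycin (difference -4.47 on the log2 scale, SE 0.45, edgeR adjusted p = 0.00344). The MTZ+ DMSO libraries were the highest of the 12 for *atp1a1b*, whereas for *fabp7a* the MTZ- rapamycin libraries reached the same range. Among transmitter and synapse genes, 17 of 44 had a lower effect with rapamycin, with 8 to 11 when any of MTZ+ DMSO replicates 1 and 2, the 3 MTZ- DMSO libraries, MTZ- rapamycin replicate 1 or MTZ+ rapamycin replicates 2 and 3 was left out, 3 without both MTZ+ libraries of replicate 2 and 26 with DESeq2. They included *slc6a1a* with 0, 0 and 0 CPM in MTZ- DMSO and 15.2, 3.096 and 4.81 CPM in MTZ+ DMSO libraries (edgeR adjusted p of the difference = 0.00958). The summed rod and cone markers, which mark another neuronal source, were 456, 572 and 1508 CPM in MTZ- DMSO and 2476, 786 and 1076 CPM in MTZ+ DMSO libraries, and their part in these differences was not tested.

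Inducible heat shock genes showed the reverse. *hsp70l* had 30.5, 22.2 and 41.6 CPM in MTZ- DMSO and 166, 162 and 63.3 CPM in MTZ+ DMSO libraries, beside 3.62, 3.24 and 8.25 CPM in MTZ- rapamycin and 301, 596 and 128 CPM in MTZ+ rapamycin libraries (difference 4.03 on the log2 scale, SE 0.81, edgeR adjusted p = 0.0235). The difference did not pass without MTZ- rapamycin replicate 1 or without MTZ+ DMSO replicate 2. For *hsp70l* the MTZ- rapamycin libraries were below all MTZ- DMSO libraries, whereas the MTZ+ ranges of the treatments overlap. Of 72 heat shock genes, 4 had a higher and 3 a lower effect. The higher count was 0 without MTZ- rapamycin replicate 1, 1 without any one of the MTZ+ DMSO libraries and 2 without MTZ- DMSO replicate 1 or 3, and the lower count was 1 without MTZ- rapamycin replicate 1 or MTZ+ DMSO replicate 2. Without both MTZ+ libraries of replicate 2 they were 1 and 0. Of 102 ribosome biogenesis genes, 63 were upregulated and 4 downregulated with DMSO, with a median of 1.36, and 10 had a higher effect with rapamycin and none a lower one. This count was 21 without MTZ+ rapamycin replicate 1, 2 without MTZ+ DMSO replicate 2 or MTZ- DMSO replicate 1, and 3 to 5 when MTZ+ DMSO replicate 1 or 3, MTZ- DMSO replicate 2, MTZ+ rapamycin replicate 2 or 3, or MTZ- rapamycin replicate 1 or 3 was left out. It was 1 without both MTZ+ libraries of replicate 2 and 19 with DESeq2. *ddx21*, encoding a nucleolar helicase, had 128, 116 and 70.6 CPM in MTZ- DMSO and 53.9, 50.5 and 47.9 CPM in MTZ+ DMSO libraries and 103, 110.3 and 103 CPM in the MTZ- libraries and 191, 241 and 187 CPM in the MTZ+ libraries with rapamycin (difference 2.02 on the log2 scale, SE 0.30, edgeR adjusted p = 0.00968). *gnl2*, encoding a nucleolar GTPase, had 149, 93.2 and 129 CPM in MTZ- DMSO and 48.8, 51.5 and 44.8 CPM in MTZ+ DMSO libraries and 84.2, 125 and 118 CPM in the MTZ- libraries and 118, 135 and 131 CPM in the MTZ+ libraries with rapamycin (difference 1.58 on the log2 scale, SE 0.29, edgeR adjusted p = 0.0167). Both genes fell with DMSO and were not DEGs with rapamycin, although *ddx21*, at a log2 fold change of 0.97, passed without MTZ+ replicate 1, MTZ+ replicate 3 or MTZ- replicate 2. The ribosome biogenesis sums were 3547, 2887 and 2734 CPM in MTZ- DMSO and 4485, 6362 and 5192 CPM in MTZ+ DMSO libraries, the latter below all 3 MTZ+ rapamycin libraries.

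**Figure D5:**
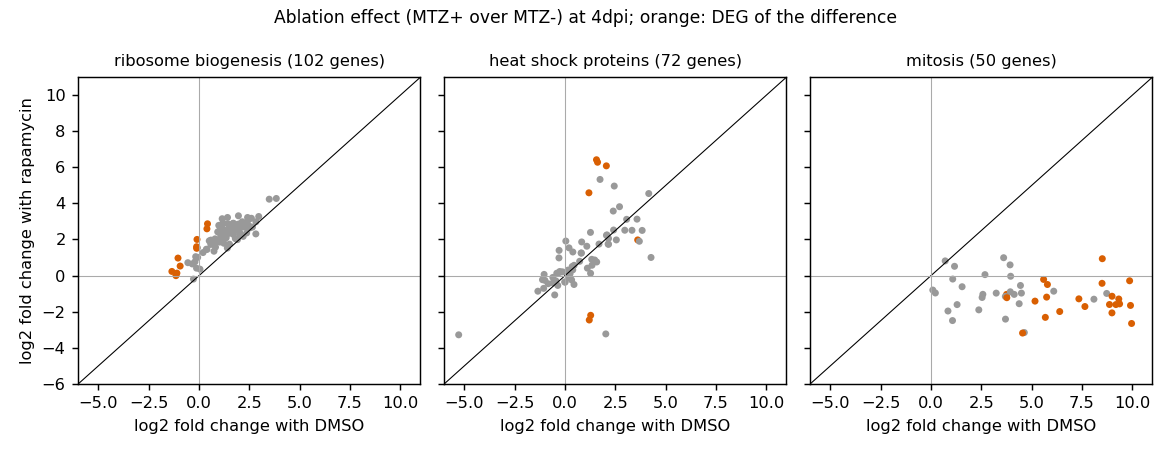
Log2 fold change after ablation (MTZ+ over MTZ-) at 4dpi with DMSO (x axis) and with rapamycin (y axis) for the members of 3 gene lists, with genes whose effects differed in orange and a line of equal effects. Most ribosome biogenesis genes lie above the line, 4 heat shock genes stand far above it, and the mitosis genes spread along the x axis with a median of 4.46 with DMSO and of -1.15 with rapamycin.

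Single genes with a different effect included *dusp6*, encoding a phosphatase that limits Erk signalling, with 409, 244 and 365 CPM in MTZ- DMSO and 189, 157 and 141 CPM in MTZ+ DMSO libraries and 86.1, 68.4 and 110.4 CPM in the MTZ- libraries and 273, 296 and 205 CPM in the MTZ+ libraries with rapamycin (difference 2.61 on the log2 scale, SE 0.35, edgeR adjusted p = 0.00629). It fell with DMSO and rose with rapamycin. *otx2a* had 46.2, 36.7 and 43.8 CPM in MTZ- DMSO and 33.0, 35.3 and 47.6 CPM in MTZ+ DMSO libraries (difference 1.65 on the log2 scale, SE 0.27, edgeR adjusted p = 0.0111), *serpinh1b* had 22.03, 28.8 and 54.5 CPM in MTZ- DMSO and 13.0, 17.3 and 9.09 CPM in MTZ+ DMSO libraries (difference 5.19 on the log2 scale, SE 0.91, edgeR adjusted p = 0.0137), and both were upregulated with rapamycin and not DEGs with DMSO. For *dusp6*, *otx2a* and *serpinh1b* alike, the MTZ- rapamycin libraries were below all MTZ- DMSO libraries, with 1.084, 3.34 and 2.65 CPM for *serpinh1b*. *selenop* had 659, 443 and 324 CPM in MTZ- DMSO and 826, 697 and 528 CPM in MTZ+ DMSO libraries (difference -3.64 on the log2 scale, SE 0.59, edgeR adjusted p = 0.0113), and *nr1d2a* had 221, 176 and 154 CPM in MTZ- DMSO and 145, 133 and 105 CPM in MTZ+ DMSO libraries (difference -1.69 on the log2 scale, SE 0.32, edgeR adjusted p = 0.0193), the latter not passing without MTZ+ DMSO replicate 2. Both were downregulated with rapamycin and not DEGs with DMSO. *pfkfb3* had 0.797, 2.78 and 1.57 CPM in MTZ- DMSO and 147, 161 and 153 CPM in MTZ+ DMSO libraries (difference -3.34 on the log2 scale, SE 0.56, edgeR adjusted p = 0.0121) and *abracl* had 4.86, 5.07 and 4.69 CPM in MTZ- DMSO and 98.4, 77.9 and 84.1 CPM in MTZ+ DMSO libraries (difference -1.31 on the log2 scale, SE 0.21, edgeR adjusted p = 0.0105), each upregulated with both treatments and by a smaller fold change with rapamycin. For both genes the MTZ- rapamycin libraries were above all MTZ- DMSO libraries. Their levels after ablation were not lower with rapamycin. The MTZ+ rapamycin libraries were above all MTZ+ DMSO libraries for *pfkfb3*, and the MTZ+ ranges overlap for *abracl*.

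At 2dpi, in other rapamycin-treated larvae 7 dpf old, 1492 genes (7.88% of 18939 tested) were upregulated and 1056 (5.58%) downregulated after ablation. Of the 1512 genes upregulated at 4dpi, 1001 (66.2%, and 67.1% of the 2dpi genes) were upregulated at 2dpi as well, and of the downregulated genes 535 (44.0% and 50.7%). The difference between the time points reached the criteria for 3 genes (0.0158%) in edgeR's quasi-likelihood test, with 1472 at an unadjusted p under 0.05 and 109 passing in DESeq2. With the replicate number as a block, 1 gene passed. This comparison was not run with single libraries left out. The 3 genes were *slc43a2b*, whose log2 fold change was -1.64 at 2dpi (difference -5.01 on the log2 scale, SE 0.77, edgeR adjusted p = 0.0204), *ace*, encoding angiotensin-converting enzyme (difference 3.36 on the log2 scale, SE 0.50, edgeR adjusted p = 0.0204), and *clu*, encoding the extracellular chaperone clusterin (difference 2.94 on the log2 scale, SE 0.50, edgeR adjusted p = 0.0446). Neither *ace* nor *clu* was a DEG at 4dpi, with log2 fold changes of 0.52 to 0.63 and 0.35 to 0.54 under the alternatives. The larger part of both differences thus came from the 2dpi effect. At 4dpi *clu* had 1629.8, 1149 and 1500.4 CPM in the MTZ- libraries and 2016, 2122 and 1842 CPM in the MTZ+ libraries. Of the 102 ribosome biogenesis genes, 93 were upregulated already at 2dpi.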

How the data were processed

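RNA from sorted eGFP+ cells was amplified with a SMART-Seq kit and sequenced as paired 75 base reads (Nextera XT libraries). The authors trimmed the reads, aligned them to the zebrafish genome GRCz11 in CLC Genomics Workbench and deposited, for each library, the total read count and the TPM of 25281 genes, 1 table per time point. Counter settings, multi-mapping rules, strand use and tool versions are not given in the sources used here. The deposited TPM values were used only for the filter on the larger group mean.

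Counts were tested with edgeR 4.0.16 (R 4.3.3): filterByExpr with a minimum count of 10, TMM scaling, robust quasi-likelihood fit, group as the only term and Benjamini-Hochberg adjustment over all tested genes. The 12 libraries of 4dpi shared 1 fit, and the comparison between time points used all 24. CPM values are counts scaled to the library size of the fit times its TMM factor, and levels summed over genes use the same scale. DEG filters follow the study's methods. For a group at 0, folds are bounds that set the mean of the other group against 3 counts in each library. They cover counting error only, and single libraries can give a smaller fold. Log2 fold changes of genes with few counts in a group depend on the prior count of the fit, and their sizes are uncertain. Alternatives were DESeq2 1.42.0, its size factors in edgeR, no count filter, a CPM filter in place of the TPM filter, the 6 compared libraries alone, the replicate number as a block, and leaving out each library. The fitting code was tested on simulated data.

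Gene lists and members were chosen with earlier results of these data known. Named genes are, in each direction, the 12 DEGs with the smallest p that changed alike in 3 pairs and the 6 with the largest change, up to 6 members of each list by p, list members with a tested difference between effects, the markers, and the leading genes of each difference test. Overlapping gene models are named where a gene of the text has one.

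Same-numbered libraries carry the same date in the raw names of the labels, which is where the pairing comes from. Their deviations from the group means correlated at -0.05, -0.02 and 0.03 between the MTZ+ and MTZ- libraries of replicates 1, 2 and 3. Each library is a pool of larvae, so p-values measure the spread between pools, and 3 libraries per group limit the precision.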

Additional observations from a re-analysis of the deposited data

Results flagged for a closer look

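The ablation effects with rapamycin and with DMSO at 4dpi differed for 581 genes by a test of the difference itself, and the effects with rapamycin at 4dpi and 2dpi differed for 3 genes. All values here are differences between log2 fold changes (edgeR, positive where the effect was higher with rapamycin, or at 4dpi). Among genes of ribosome production, the difference was 2.45 for *rcl1*, 2.02 for *ddx21*, 1.58 for *gnl2* and 1.14 for *gtpbp4*. Among heat shock genes, it was 4.03 for *hsp70l*, 4.86 for *hsp70.1*, 4.67 for *hsp70.2* and 3.40 for *dnajb1b*, and it was negative for *dnajb11* (-1.63) and *hspa12a* (-3.66). It was 5.19 for *serpinh1b*, 3.17 for *lifrb*, 2.61 for *dusp6*, 1.65 for *otx2a* and 1.62 for *slc5a3b*.

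Among genes of replication and mitosis the difference was -8.64 for *mki67*, -9.36 for *nusap1*, -6.94 for *cdk1*, -6.72 for *mcm2* and -6.87 for *mcm5*, and each of these genes had at least 1 MTZ- DMSO library at 0. Among glial, neuronal and photoreceptor genes it was -6.01 for *her4.1*, -5.10 for *fabp7a*, -16.25 for *slc6a1a*, -5.76 for *crx*, -4.47 for *atp1a1b* and -3.28 for *atp1a3a*. It was -3.64 for *selenop*, -3.34 for *pfkfb3*, -1.91 for *psme1*, -1.77 for *ip6k2a*, -1.69 for *nr1d2a* and -1.31 for *abracl*. For *igf1* it was -7.89. The values of *slc6a1a* and *igf1* depend on the prior count of the fit, because a whole group was at 0, and are not bounds. Those of *mki67*, *nusap1* and *mcm2* rest on few counts in the MTZ- DMSO libraries, and their sizes are uncertain too.

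Between the time points the difference was -5.01 for *slc43a2b*, 3.36 for *ace* and 2.94 for *clu*.

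Of the 33 genes named here for the difference between treatments, 15 passed also when each of the 12 libraries was left out. These 15 were *abracl*, *ddx21*, *gnl2*, *dnajb11*, *serpinh1b*, *otx2a*, *mki67*, *nusap1*, *slc6a1a*, *her4.1*, *fabp7a*, *pfkfb3*, *selenop*, *dusp6* and *atp1a1b*. *lifrb* and *igf1* passed in only 2 of the 12 fits, and *rcl1* and *gtpbp4* in 4. *slc5a3b*, *atp1a3a*, *hsp70.2* and *dnajb1b* passed in 5. The call was lost without MTZ- rapamycin replicate 1 for 14 of the 33 and without MTZ+ DMSO replicate 2 for 14.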

How the results depend on the processing

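Without single libraries the 2727 DEGs of the ablation effect with rapamycin became 1644 to 3464, the lowest without both MTZ+ libraries of replicate 2, and the 581 genes with a different effect between treatments became 86 to 607. DESeq2 gave 1567 such genes, with 3661 DEGs of the ablation effect. The replicate block on all libraries gave 2770 DEGs of the ablation effect, 489 genes that differed between treatments and 1 in place of 3 between the time points, where DESeq2 gave 109. The block on the 6 compared libraries alone, added after seeing the data, left 30 DEGs, with fewer residual degrees of freedom, while the same 6 without it gave 2228 (63.0% of them upregulated, against 55.4%). For lists of the report, DESeq2 moved a count by over 1.5 times for AP-1 and immediate early genes (11 upregulated), CCN and Yap/Taz genes (8), cytokines (7), innate immune genes (17), transmitter and synapse genes (15 downregulated), bipolar, amacrine and ganglion markers (7), lysosome genes (8) and mTOR genes (4 upregulated and 7 downregulated), beside those given with their lists and counts of 0 or 1 that rose by 1. With DESeq2 size factors, no count filter or the CPM filter, these counts stayed within 1.5 times the main value, with 1 exception. With DESeq2 size factors, 1 mTOR gene was upregulated. The 6 compared libraries alone moved more counts. They gave 4 downregulated transmitter and synapse genes, 1 downregulated bipolar, amacrine and ganglion marker and 3 downregulated lysosome genes. Among other lists, they gave 1 downregulated Atf4 and amino acid response gene, 2 Wnt pathway genes and 5 mitosis genes. Of 140 named DEGs of the ablation effect, 138 passed under each alternative planned, the exceptions being *lrata* and *crx*, and the block with 12 libraries cost none of them. Most of these genes were named for a small p in the main fit, which favours passing. Their count therefore does not describe the 2727 DEGs as a whole. Of 1008 counts of list members under the alternatives, 277 moved by over 1.5 times, most of them small counts, and ribosome biogenesis moved only in the block fit of 6 libraries. At these depths 3 counts correspond to 0.0740 to 0.105 CPM in the 6 libraries, and differences in genes below that level were not detectable.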
